A study of Mus musculus with 7 samples.

Results

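The apolipoprotein genes analysed here are the 10 genes *Apoa1*, *Apoa2*, *Apoa4*, *Apoa5*, *Apob*, *Apoc1*, *Apoc2*, *Apoc3*, *Apoe* and *Apom*, taken by symbol from the 37620 Ensembl gene rows of a bulk RNA sequencing count table. All 10 were found, and all 10 passed the filter on low counts. All livers were from the strain C57BL/6 after 30 weeks of Western diet. The tested mice had high total bile acids (H-TBA, 4 libraries) and the mice they were compared with had low total bile acids (L-TBA, 3 libraries). Strain, diet and duration were the same in both groups, and the labels name no genotype, age, bile acid level or way of assigning mice to a group. The labels also do not say that each library came from its own mouse, so the p-values measure only the spread between these libraries, which may be technical. RNA came from homogenates of the whole liver, so fewer cells of a type and less RNA per cell cannot be told apart.

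Apolipoproteins are the protein coats of the particles that carry triglyceride, phospholipid and cholesterol through blood, and the liver makes most of them. ApoB is the scaffold of very low density lipoprotein (VLDL). ApoA-I and ApoA-II are the main proteins of high density lipoprotein (HDL), while ApoE and the small C apolipoproteins move between particles and steer their lipolysis and their uptake by receptors. Several of the genes sit side by side. *Apoa1*, *Apoc3*, *Apoa4* and *Apoa5* follow each other on chromosome 9, *Apoc2*, *Apoc1* and *Apoe* lie together on chromosome 7 with *Apoc4* among them, and *Apoa2*, *Apob* and *Apom* stand alone on chromosomes 1, 12 and 17.

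Promoters are shown for 4 genes, because *Apoa4* and *Apoa2* had the largest differences between the groups and *Apoa1* and *Apoa5*, chromosome 9 neighbours of *Apoa4*, did not pass the test. Each is the RefSeq window on GRCm38.p6 from 250 bases before to 50 bases after the annotated start, 5′ to 3′, and a RefSeq window was matched for 8 of the 10 genes. *Apoc1* and *Apoc3* were not matched. Capitals mark matches to 4 motifs searched on both strands, and no 2 matches overlapped. They were CAAAGTNCA, a motif bound by HNF4; AGGTCA, the nuclear receptor half-site; CACGTG, known as the E-box; and the core promoter motif TATAAA.
Apoa4, chr9:46240594-46240893, plus strand: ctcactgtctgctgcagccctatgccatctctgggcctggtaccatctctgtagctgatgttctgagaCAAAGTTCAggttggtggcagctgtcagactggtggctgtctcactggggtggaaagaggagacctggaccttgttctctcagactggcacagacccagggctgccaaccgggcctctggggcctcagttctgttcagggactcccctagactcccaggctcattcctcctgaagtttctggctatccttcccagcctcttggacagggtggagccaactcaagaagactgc
Apoa1, chr9:46228380-46228679, plus strand: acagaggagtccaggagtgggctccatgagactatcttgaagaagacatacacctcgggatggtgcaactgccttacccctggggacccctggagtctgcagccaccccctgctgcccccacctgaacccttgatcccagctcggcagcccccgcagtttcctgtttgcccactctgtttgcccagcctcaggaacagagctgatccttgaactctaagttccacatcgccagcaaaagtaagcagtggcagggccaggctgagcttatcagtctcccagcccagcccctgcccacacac
Apoa5, chr9:46268383-46268682, plus strand: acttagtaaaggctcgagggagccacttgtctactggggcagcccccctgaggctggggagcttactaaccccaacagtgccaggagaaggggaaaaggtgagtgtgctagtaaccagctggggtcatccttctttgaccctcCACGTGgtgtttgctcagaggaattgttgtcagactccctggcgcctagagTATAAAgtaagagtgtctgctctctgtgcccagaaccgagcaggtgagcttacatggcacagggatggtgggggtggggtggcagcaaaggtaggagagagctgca
Apoa2, chr1:171224804-171225103, plus strand: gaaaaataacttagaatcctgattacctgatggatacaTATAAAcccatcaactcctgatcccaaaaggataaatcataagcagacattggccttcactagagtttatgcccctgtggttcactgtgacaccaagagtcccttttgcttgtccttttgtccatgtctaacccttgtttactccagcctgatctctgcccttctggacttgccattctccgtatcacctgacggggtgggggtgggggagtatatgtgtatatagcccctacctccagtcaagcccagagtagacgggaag
The *Apoa4* window held 1 match to CAAAGTNCA, a motif found in 1.41% of 32851 RefSeq promoter windows of the same length. The *Apoa5* window held 1 match each to CACGTG (7.15% of windows) and TATAAA (13.6% of windows), and the *Apoa2* window held 1 match to TATAAA. None of the 4 motifs was found in the *Apoa1* window. Of the 4 windows not printed, *Apoc2* held 2 matches to AGGTCA (16.3% of windows), *Apob* held 1 to TATAAA, and *Apoe* and *Apom* held none. A match describes the letters in the window and is not evidence of a bound site. Only exact matches were searched, so a window without a match may still hold variant forms of a motif.

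Of the 10 apolipoprotein genes, 7 were lower in H-TBA livers and 0 were higher at an adjusted p under 0.05 (edgeR quasi-likelihood test, Benjamini-Hochberg over all 15249 tested genes). At the same threshold 10.7% of all tested genes were lower and 13.1% were higher, 23.9% in either direction. No apolipoprotein gene was higher at an unadjusted p under 0.05 either, and DESeq2 and limma-voom each also called 7 lower and 0 higher. With libraries scaled by their totals in place of TMM, which moved the median log2 fold change of all genes to 0.16, edgeR called 6 lower and 1 higher. The 7 were *Apoa4*, *Apoa2*, *Apoc1*, *Apoc2*, *Apoc3*, *Apoe* and *Apob*, and in each of them every H-TBA library lay below every L-TBA library. Groups that did not overlap were found in 33.5% of all tested genes, and with H-TBA lower in 16.3%. *Apoa1*, *Apoa5* and *Apom* did not pass the test and their groups overlapped. The median log2 fold change of the 10 genes, H-TBA over L-TBA, was -0.41, beside 0.00 over all tested genes. Lower calls were more frequent among highly expressed genes. Among the 116 genes with a mean of at least 1000 CPM, a class set after the data were seen, 38.8% were lower in H-TBA livers, and 6 of the 8 apolipoprotein genes in that class were lower. Levels are given in CPM, each count divided by its library's total after scaling of that total by trimmed mean of M-values (TMM). Fold changes are on the log2 scale.

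**Figure D1:**
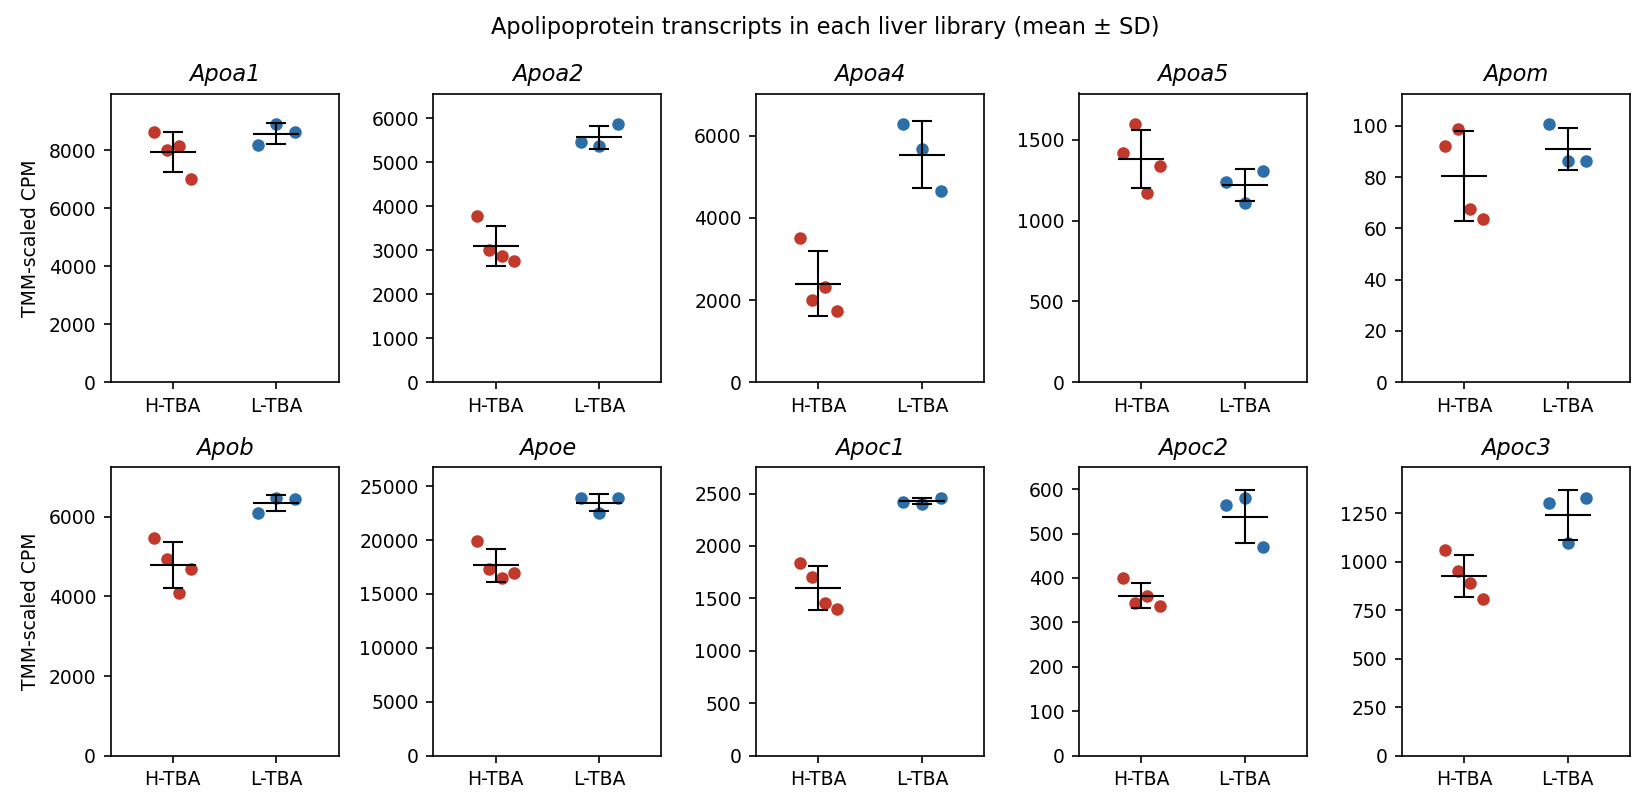
TMM-scaled CPM (vertical axes, each starting at 0) of the 10 apolipoprotein genes in every library, H-TBA left (4 libraries) and L-TBA right (3 libraries); points are libraries and bars are the mean ± SD. The groups do not overlap in *Apoa2*, *Apoa4*, *Apob*, *Apoe*, *Apoc1*, *Apoc2* and *Apoc3*, and overlap in *Apoa1*, *Apoa5* and *Apom*.

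Among the genes of HDL proteins *Apoa2* and *Apoa4* were lower, while *Apoa1*, *Apoa5* and *Apom* did not pass the test. *Apoa1* (ENSMUSG00000032083) encodes the main structural protein of HDL and the activator of the cholesterol-esterifying enzyme LCAT. Its level was 8613, 7999.7, 8144 and 7001 CPM in the 4 H-TBA libraries, against 8171, 8883 and 8614 CPM in the 3 L-TBA libraries. The groups overlapped, the means were 7939 ± 678 CPM in H-TBA livers and 8556 ± 360 CPM in L-TBA livers (SD, n = 4 and 3), and the log2 fold change of -0.11 ± 0.12 (SE) did not pass the test (edgeR adjusted p = 0.551). It turned to 0.05 with scaling by library totals.

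*Apoa2* (ENSMUSG00000005681), which encodes the second most abundant HDL protein, had 3773, 2993, 2872 and 2747 CPM in H-TBA livers, against 5462, 5358 and 5854 CPM in L-TBA livers. The highest H-TBA library was well under the lowest L-TBA library. Mean *Apoa2* was 3096 ± 462 CPM in H-TBA livers, 55.7% of the 5558 ± 262 CPM in L-TBA livers (SD, n = 4 and 3), a log2 fold change of -0.84 ± 0.13 (SE, edgeR adjusted p = 0.00115). These 2 HDL genes were also compared within each library, where no scaling enters. The ratio of *Apoa2* to *Apoa1* counts was 0.438, 0.374, 0.353 and 0.392 in H-TBA libraries, against 0.669, 0.603 and 0.680 in L-TBA libraries. The ratio was lower in 4 of 4 H-TBA libraries (log2 difference -0.74, exact two-sided permutation p = 0.0571, adjusted p = 0.114 over 6 ratios). With 4 libraries against 3 there are 35 splits, and the two-sided p was taken as the smaller tail doubled. The smallest p this test can give is then 0.0571, so none of the 6 ratios could pass 0.05 by it.

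*Apoa4* (ENSMUSG00000032080) encodes a lipid-carrying protein of HDL and triglyceride-rich particles, made mainly by intestine and, in mice, also by liver. It had the largest fold change of the 10 genes. Its level was 3522, 2003, 2326 and 1744 CPM in H-TBA livers, against 6279, 5679 and 4667 CPM in L-TBA livers. H-TBA library 1 stood above the other 3 H-TBA libraries and below all L-TBA libraries. Mean *Apoa4* was 2399 ± 786 CPM in H-TBA livers, 43.3% of the 5542 ± 814 CPM in L-TBA livers (SD, n = 4 and 3), a log2 fold change of -1.21 ± 0.21 (SE, edgeR adjusted p = 0.00238). When each library was left out in turn the log2 fold change ran from -1.45 to -1.08, with H-TBA library 1 left out at the low end.

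Because *Apoa4* is also an intestinal gene, the enterocyte markers are given beside it. Of the 6 markers, *Alpi* was at 0 in all 7 libraries and *Lct* had 2 counts in all. The 4 that could be tested did not move one way, with *Slc5a1* and *Vil1* higher in H-TBA livers and *Fabp2* and *Anpep* lower. Their summed level was 223 to 263 CPM in H-TBA libraries and 289 to 354 CPM in L-TBA libraries. The antisense gene *Gm10680* shares exon positions with *Apoa4*, and it had 119 counts in all 7 libraries together.

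*Apoa5* (ENSMUSG00000032079) encodes a minor plasma protein that promotes the lipolysis of triglyceride by lipoprotein lipase. It was the only one of the 10 genes with a positive fold change under TMM; with scaling by library totals *Apoa1* was also above 0. Its level was 1419, 1595, 1169 and 1341 CPM in H-TBA livers, against 1242, 1110.45 and 1306 CPM in L-TBA livers. The groups overlapped, with means of 1381 ± 177 CPM in H-TBA livers and 1219 ± 99.7 CPM in L-TBA livers (SD, n = 4 and 3) and a log2 fold change of 0.18 ± 0.12 (SE, edgeR adjusted p = 0.326). With libraries scaled by their totals in place of TMM, *Apoa5* passed the test as higher, at a log2 fold change of 0.33 (edgeR adjusted p = 0.0288), a scaling under which 20.4% of all tested genes were higher and 5.46% lower.

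*Apom* (ENSMUSG00000024391) encodes the HDL-bound carrier of sphingosine-1-phosphate and was the least abundant of the 10. Its level was 92.2, 98.8, 67.4 and 63.7 CPM in H-TBA livers, against 101, 86.3 and 86.4 CPM in L-TBA livers. H-TBA libraries 1 and 2 lay among the L-TBA libraries while H-TBA libraries 3 and 4 lay below them. The log2 fold change was -0.18 ± 0.15 (SE, edgeR adjusted p = 0.417).

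The VLDL scaffold was lower. *Apob* (ENSMUSG00000020609) encodes the one protein that stays with each VLDL particle from assembly to uptake. Its level was 5452, 4927, 4076 and 4691 CPM in H-TBA livers, against 6102, 6471 and 6440.1 CPM in L-TBA livers. No H-TBA library reached an L-TBA library. Mean *Apob* was 4787 ± 571 CPM in H-TBA livers, 75.5% of the 6338 ± 205 CPM in L-TBA livers (SD, n = 4 and 3), a log2 fold change of -0.40 ± 0.12 (SE, edgeR adjusted p = 0.0346).

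*Apoe* (ENSMUSG00000002985) encodes the ligand by which remnant particles bind their receptors on hepatocytes, and it had the second highest mean CPM of all tested genes. Its level was 19892.5, 17326.5, 16501 and 16942 CPM in H-TBA livers, against 23899.7, 22521 and 23902 CPM in L-TBA livers. All 4 H-TBA libraries were below the 3 L-TBA libraries, and the L-TBA libraries lay close together. Mean *Apoe* was 17665.5 ± 1523 CPM in H-TBA livers, 75.4% of the 23441 ± 797 CPM in L-TBA livers (SD, n = 4 and 3), a log2 fold change of -0.41 ± 0.12 (SE, edgeR adjusted p = 0.0341).

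Macrophages also make ApoE, so macrophage markers are given beside it. Of 13 markers, edgeR called 0 higher and 3 lower in H-TBA livers (0 higher and 8 lower at an unadjusted p under 0.05), the Kupffer cell genes *Cd5l* and *Clec4f* and the general marker *Adgre1*. Their summed level was 604 to 706 CPM in H-TBA libraries and 836 to 1087 CPM in L-TBA libraries. *Cd5l* averaged 97.1 ± 22.7 CPM in H-TBA livers and 249 ± 51.4 CPM in L-TBA livers (SD, n = 4 and 3). The other 10 macrophage markers, among them *C1qa*, *C1qb*, *C1qc* and *Csf1r*, did not pass the test. Over all tested genes 10.7% were lower. The part of macrophages in the *Apoe* difference was not tested.

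*Apoc1*, *Apoc2* and *Apoc3*, the C apolipoproteins among the 10 genes, were lower, while *Apoc4*, outside the 10, did not pass the test. *Apoc1* (ENSMUSG00000040564) encodes a protein that hinders the uptake of remnants and inhibits the plasma lipid transfer protein CETP in species that have it. Its level was 1839, 1704, 1453 and 1399 CPM in H-TBA livers, against 2424, 2400.5 and 2458 CPM in L-TBA livers. The L-TBA libraries were almost level, and all 4 H-TBA libraries lay far below them. Mean *Apoc1* was 1598 ± 208 CPM in H-TBA livers, 65.8% of the 2428 ± 29.1 CPM in L-TBA livers (SD, n = 4 and 3), a log2 fold change of -0.60 ± 0.12 (SE, edgeR adjusted p = 0.00416).

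*Apoc2* (ENSMUSG00000002992) encodes the cofactor that lipoprotein lipase needs. Its level was 400.2, 344, 359 and 338 CPM in H-TBA livers, against 565, 580.2 and 469 CPM in L-TBA livers. The groups did not overlap, although L-TBA library 3 lay below the other L-TBA libraries. The mean of 360.4 ± 28.0 CPM in H-TBA livers was 67.0% of the 538 ± 60.4 CPM in L-TBA livers (SD, n = 4 and 3), a log2 fold change of -0.58 ± 0.11 (SE, edgeR adjusted p = 0.00311).

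*Apoc3* (ENSMUSG00000032081) encodes an inhibitor of lipoprotein lipase and of remnant uptake, the opposite role to *Apoc2* and *Apoa5*. Its level was 1062, 949.97, 888 and 808 CPM in H-TBA livers, against 1299.96, 1094 and 1329 CPM in L-TBA livers. The highest H-TBA library and the lowest L-TBA library were close. The mean of 927 ± 107 CPM in H-TBA livers was 74.7% of the 1241 ± 128 CPM in L-TBA livers (SD, n = 4 and 3), a log2 fold change of -0.42 ± 0.12 (SE, edgeR adjusted p = 0.0267). Among the genes that act on triglyceride lipolysis, the activator *Apoc2* and the inhibitor *Apoc3* were therefore both lower, while the activator *Apoa5* did not pass the test.

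The 7 calls were not equally firm. *Apoa4*, *Apoa2*, *Apoc1* and *Apoc2* passed the test whichever of the 7 libraries was left out, with largest adjusted p of 0.0128, 0.00729, 0.0201 and 0.0182. With a block on replicate number *Apoa4*, *Apoa2* and *Apoc2* still passed, while *Apoc1* did not (edgeR adjusted p = 0.0632). *Apob* and *Apoe* passed in 1 of the 7 fits with a library left out, the one without H-TBA library 1, and *Apoc3* passed in 2, without H-TBA library 1 and without L-TBA library 2. The count of lower genes was thus 4 without H-TBA library 2, 3 or 4 or L-TBA library 1 or 3, 5 without L-TBA library 2, and 7 without H-TBA library 1. Calls over the whole table moved the same way. With all libraries 1635 of all tested genes were lower. Without H-TBA library 1 there were 2123, and without any other single library 1035 to 1207. The log2 fold change stayed negative for all 7 genes in these fits, from -0.47 to -0.33 for *Apob*, -0.47 to -0.37 for *Apoe* and -0.51 to -0.36 for *Apoc3*. Scaling by library totals brought these 3 to -0.26, -0.26 and -0.27, and a GC-content offset moved *Apoe* to -0.63 (edgeR adjusted p = 0.00886). *Apoc3* also did not pass with a gene-length offset (edgeR adjusted p = 0.0717, 11.1% of all tested genes lower) or with scaling by library totals (edgeR adjusted p = 0.0568).

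**Figure D2:**
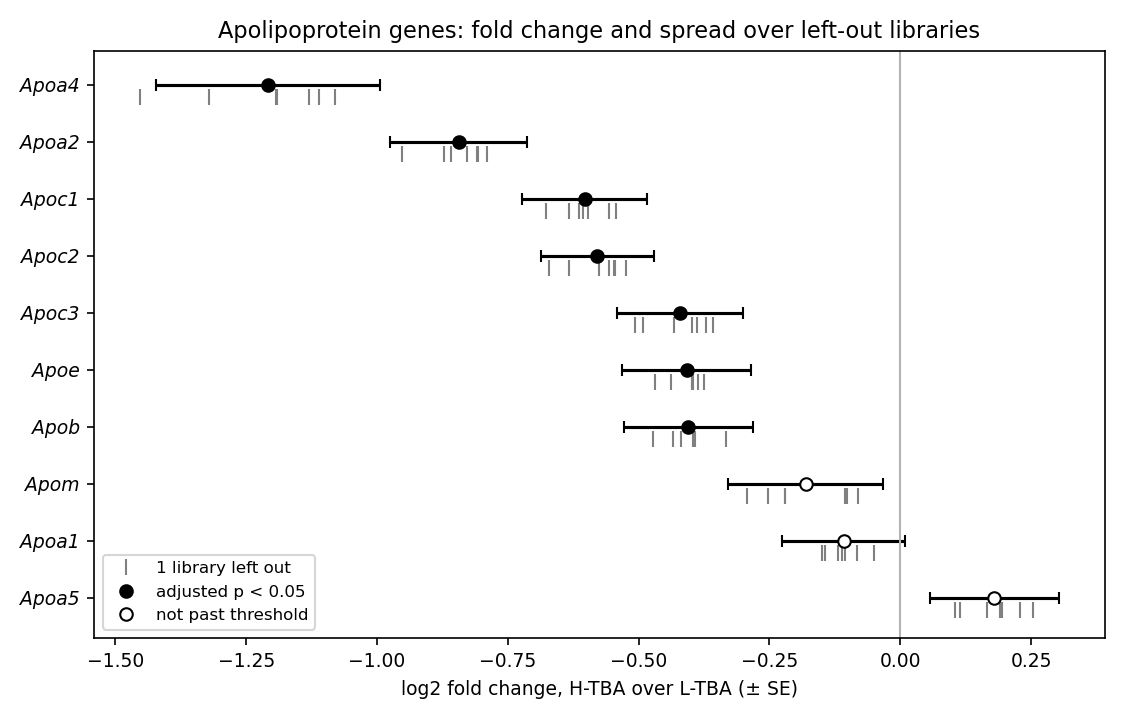
Log2 fold change, H-TBA over L-TBA (horizontal axis), of the 10 apolipoprotein genes; circles with bars are the edgeR estimate ± SE from 4 H-TBA and 3 L-TBA libraries, filled where the adjusted p is under 0.05, and ticks are the estimates with 1 library left out. *Apoa4* lies furthest left at -1.21, *Apoa2* next at -0.84, and *Apoa5* lies right of 0, at 0.18 (with scaling by library totals, not drawn, *Apoa1* does too, at 0.05).

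H-TBA library 1 was nearest to the L-TBA libraries. It had the highest level of the 4 H-TBA libraries in 8 of the 10 apolipoprotein genes, and in 59.9% of the 1635 genes that were lower in H-TBA livers, against 29.4% of all tested genes. On the first principal component of all tested genes, which held 64.7% of the variance, it stood at -10.7, the other 3 H-TBA libraries between -43.5 and -34.6, and the L-TBA libraries between 36.8 and 45.2. Without it the fold changes of the 7 called genes were larger in size than with it.

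In the chromosome 9 cluster only *Apoc3* and *Apoa4* passed the test. In gene order the log2 fold changes were -0.11 for *Apoa1*, -0.42 for *Apoc3*, -1.21 for *Apoa4* and 0.18 for *Apoa5*. The ratio of *Apoa4* to *Apoa1* counts was 0.409, 0.250, 0.286 and 0.249 in H-TBA libraries, against 0.768, 0.639 and 0.542 in L-TBA libraries. The ratio was lower in 4 of 4 H-TBA libraries (log2 difference -1.14, exact two-sided permutation p = 0.0571, adjusted p = 0.114). The ratio of *Apoc3* to *Apoa1* averaged 0.117 ± 0.00604 in H-TBA libraries and 0.145 ± 0.0195 in L-TBA libraries (SD, n = 4 and 3), and the ranges overlapped (log2 difference -0.31, exact permutation p = 0.114). The ratio of *Apoa5* to *Apoa1* averaged 0.175 ± 0.0256 in H-TBA libraries and 0.143 ± 0.0155 in L-TBA libraries, also with overlap (log2 difference 0.29, exact permutation p = 0.171).

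In the chromosome 7 cluster the fold changes were closer together. They were -0.58 for *Apoc2*, -0.25 for *Apoc4*, -0.60 for *Apoc1* and -0.41 for *Apoe*. *Apoc4*, a minor VLDL apolipoprotein that is not among the 10, averaged 451 ± 31.7 CPM in H-TBA livers and 537 ± 37.1 CPM in L-TBA livers (SD, n = 4 and 3) and did not pass the test (edgeR adjusted p = 0.0884). The ratio of *Apoc1* to *Apoe* was 0.0903 ± 0.00668 in H-TBA libraries and 0.104 ± 0.00266 in L-TBA libraries, without overlap (log2 difference -0.20, exact permutation p = 0.0571). The ratio of *Apoc2* to *Apoe* was 0.0204 ± 0.000909 in H-TBA libraries and 0.0230 ± 0.00312 in L-TBA libraries, with overlap (log2 difference -0.16, exact permutation p = 0.286). GENCODE annotates a read-through gene, *Gm44805*, over *Apoc2* on the same strand, which is not a row of the count table, so *Apoc2* counts may include its reads.

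**Figure D3:**
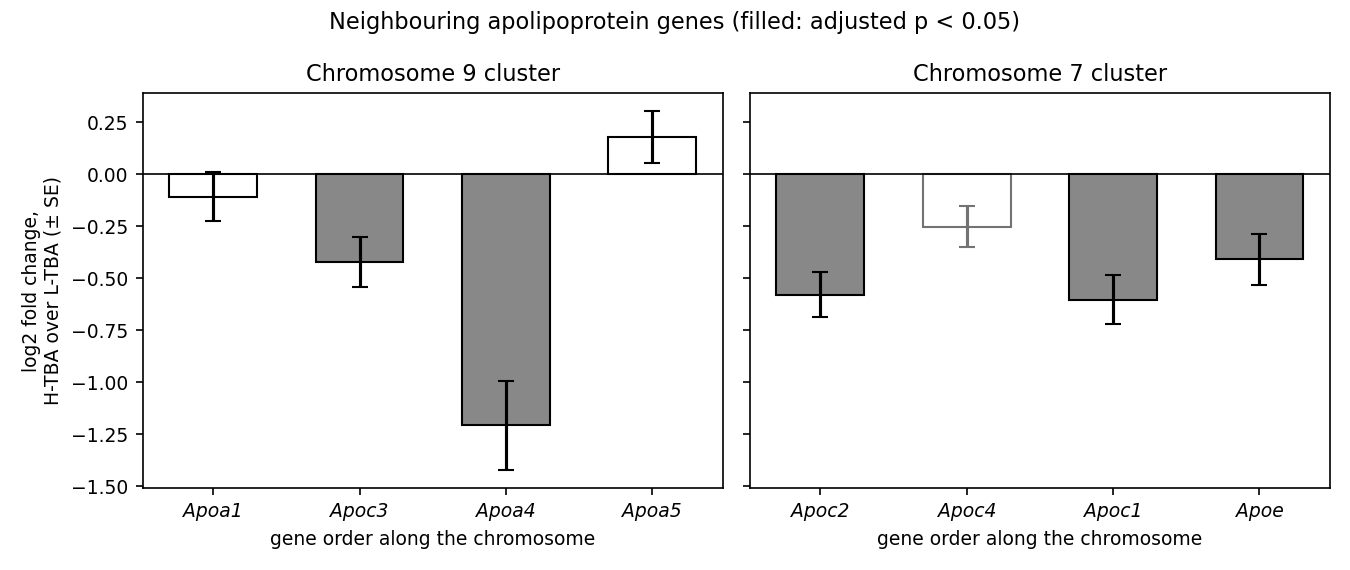
Log2 fold change, H-TBA over L-TBA (vertical axis, bars from 0, error bars ± SE), of apolipoprotein genes in their order along chromosome 9 (left) and chromosome 7 (right); filled bars have an adjusted p under 0.05 and the grey outline marks *Apoc4*, which is not among the 10. On chromosome 9 the bars run from -1.21 (*Apoa4*) to 0.18 (*Apoa5*), and on chromosome 7 from -0.60 (*Apoc1*) to -0.25 (*Apoc4*).

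Levels were compared between genes as CPM per kilobase of exon. In H-TBA livers the order was *Apoe* (8263 ± 712), *Apoa1* (6423 ± 549), *Apoa2* (5766 ± 861), *Apoc1* (2148 ± 280), *Apoa4* (1322 ± 433), *Apoc3* (914 ± 106), *Apoa5* (548 ± 70.2), *Apoc2* (443 ± 34.5), *Apob* (344 ± 41.0) and *Apom* (79.5 ± 17.3) CPM per kb (SD, n = 4). In L-TBA livers it was *Apoe* (10964 ± 373), *Apoa2* (10351 ± 487), *Apoa1* (6922 ± 291), *Apoc1* (3263 ± 39.1), *Apoa4* (3053 ± 449), *Apoc3* (1224 ± 126), *Apoc2* (662 ± 74.3), *Apoa5* (484 ± 39.5), *Apob* (455 ± 14.7) and *Apom* (89.9 ± 8.07) CPM per kb (SD, n = 3). The order thus changed at 2 places, between *Apoa1* and *Apoa2* and between *Apoa5* and *Apoc2*. Neighbours whose ranges over libraries overlapped were *Apoa1* and *Apoa2*, *Apoc1* and *Apoa4*, *Apoa4* and *Apoc3*, and *Apoa5* and *Apoc2* in H-TBA livers. In L-TBA livers they were *Apoe* and *Apoa2*, *Apoc1* and *Apoa4*, and *Apoa5* and *Apob*. The order was the same with the longest transcript as the length.

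The 10 genes together took 4.50%, 4.09%, 4.20% and 3.99% of all counts in the 4 H-TBA libraries, against 5.29%, 5.18% and 5.02% in the 3 L-TBA libraries. Every H-TBA library was below every L-TBA library, and the means were 4.20% ± 0.221 in H-TBA livers and 5.16% ± 0.139 in L-TBA livers (SD, n = 4 and 3). *Apoe* alone took 1.84% ± 0.0716 of the counts in H-TBA livers and 2.20% ± 0.0665 in L-TBA livers. These shares are of the raw totals, which ran from 9996990 to 11488951 counts in H-TBA libraries and from 10973114 to 12152613 in L-TBA libraries. The 10 genes had between 787 counts (*Apom*) and 276693 counts (*Apoe*) in a library, so the counting error of a single value was at most 3.56%.

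**Figure D4:**
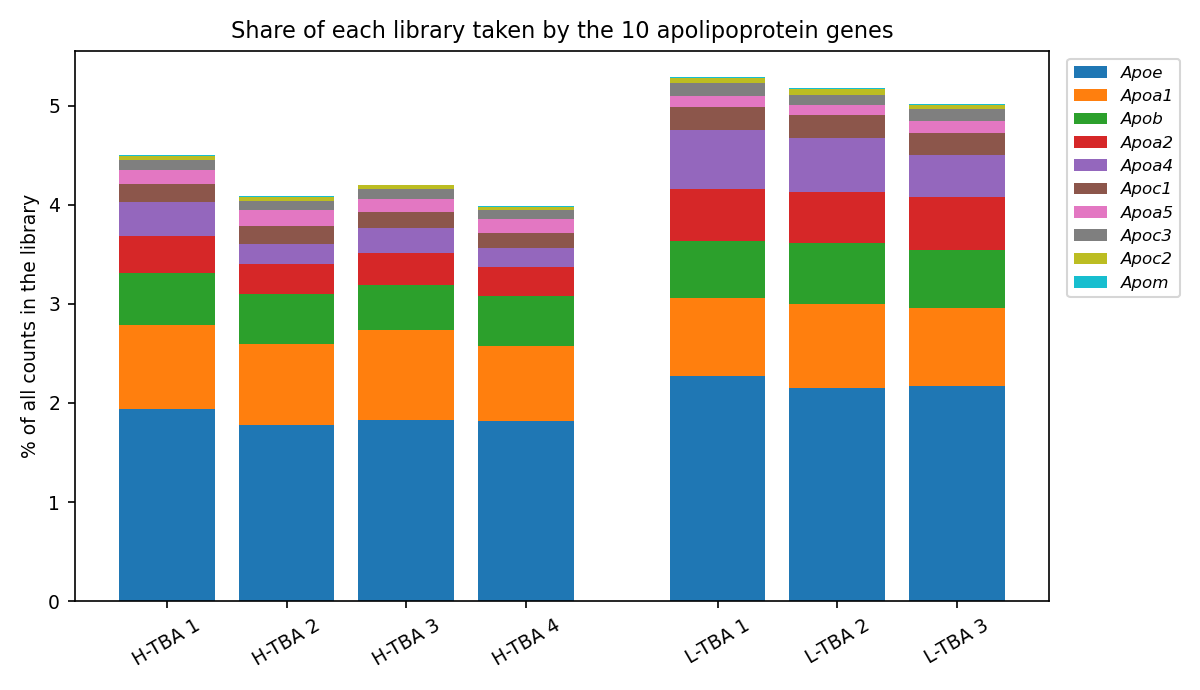
Percent of all counts (vertical axis, from 0) taken by the 10 apolipoprotein genes in each of the 4 H-TBA and 3 L-TBA libraries, stacked by gene. The stacks end between 3.99% and 4.50% in H-TBA libraries and between 5.02% and 5.29% in L-TBA libraries, and *Apoe* is the largest part of each.

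Genes that work with the apolipoproteins were described from 7 lists. The counts of each list stand beside 10.7% of all tested genes lower and 13.1% higher, and no list was tested against these shares. Among other apolipoproteins and related plasma proteins, 6 of the 12 tested were lower, 1 was higher, and the median log2 fold change was -0.29. Without H-TBA library 1, 8 were lower, and without any other single library 2 to 4 were lower and 0 higher. Those lower included 4 serum amyloid A genes, whose proteins are carried on HDL. *Saa4* averaged 78.3 ± 14.8 CPM in H-TBA livers and 198 ± 36.4 CPM in L-TBA livers (SD, n = 4 and 3; log2 fold change -1.34 ± 0.16, edgeR adjusted p = 0.000311). *Saa3* averaged 6.74 ± 2.23 CPM in H-TBA livers and 17.9 ± 5.69 CPM in L-TBA livers (log2 fold change -1.40, edgeR adjusted p = 0.00399). *Saa1* and *Saa2* are near-identical and may share reads, so their values are uncertain, and their groups overlapped. The others were *Apof* and *Apol7a*, lower, and *Clu* (clusterin), higher at a log2 fold change of 0.37 (edgeR adjusted p = 0.0462). These 3 and *Saa2* are named because of their calls. *Apoh* did not pass the test (log2 fold change -0.25, edgeR adjusted p = 0.131).

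Among genes of particle assembly and secretion, 5 of the 16 tested were lower, 1 was higher, and the median log2 fold change was -0.30. Without H-TBA library 1, 9 were lower, and without any other single library 1 to 4. *A1cf*, a cofactor of *Apob* mRNA editing, averaged 55.8 ± 8.81 CPM in H-TBA livers and 92.2 ± 6.63 CPM in L-TBA livers (SD, n = 4 and 3; log2 fold change -0.72 ± 0.12, edgeR adjusted p = 0.0015). The editing enzyme *Apobec1* did not pass the test (log2 fold change -0.23, edgeR adjusted p = 0.0797). *Mttp*, which loads lipid onto ApoB, was lower at 214 ± 28.8 CPM in H-TBA livers and 275 ± 12.4 CPM in L-TBA livers (log2 fold change -0.36 ± 0.11, edgeR adjusted p = 0.0333), a call lost in 8 of the 18 alternatives other than the replicate block. With scaling by library totals its log2 fold change was -0.21. *Cideb*, a lipid droplet protein that aids VLDL lipidation, was also lower (log2 fold change -0.39, edgeR adjusted p = 0.0091), a call lost in 2 of those 18 alternatives. The MTP partner *P4hb* and the lipase *Ces1d*, named because of their calls, were lower too. *Sort1*, a sorting receptor that binds ApoB, was higher, at 42.4 ± 5.59 CPM in H-TBA livers and 29.5 ± 3.42 CPM in L-TBA livers (log2 fold change 0.52 ± 0.12, edgeR adjusted p = 0.00927).

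Of 8 genes of plasma lipolysis, 1 was higher and 2 were lower, with a median log2 fold change of -0.20 (4 were lower without H-TBA library 1). *Lpl*, the lipase that ApoC-II activates, averaged 481 ± 24.3 CPM in H-TBA livers and 302 ± 10.3 CPM in L-TBA livers (SD, n = 4 and 3; log2 fold change 0.67 ± 0.09, edgeR adjusted p = 0.000611). *Lipc*, hepatic lipase, averaged 65.0 ± 11.3 CPM in H-TBA livers and 97.2 ± 3.44 CPM in L-TBA livers (log2 fold change -0.58 ± 0.12, edgeR adjusted p = 0.00581). *Angptl4*, a secreted inhibitor of lipoprotein lipase, did not pass (log2 fold change -0.16, edgeR adjusted p = 0.593).

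Of 11 tested genes of lipoprotein receptors and clearance, 1 was higher and 0 were lower, with a median log2 fold change of -0.07 that turned to 0.09 with scaling by library totals. At an unadjusted p under 0.05, 3 were lower, limma-voom called 1 lower and DESeq2 0, and edgeR called 1 lower without H-TBA library 1 or L-TBA library 3. The 1 was *Sdc1*, a heparan sulfate proteoglycan that binds remnants, at 362 ± 19.1 CPM in H-TBA livers and 235 ± 17.3 CPM in L-TBA livers (SD, n = 4 and 3; log2 fold change 0.62 ± 0.09, edgeR adjusted p = 0.00103). *Sdc1* is also expressed by bile duct cells, and all 8 bile duct markers were higher, with a summed level of 946 to 1820 CPM in H-TBA libraries and 455 to 716 CPM in L-TBA libraries. Their part in the result was not tested. The remnant receptor *Lrp1* (log2 fold change -0.07, edgeR adjusted p = 0.666) and the HDL receptor *Scarb1* (0.23, edgeR adjusted p = 0.142) did not pass the test.

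Of 9 genes of HDL lipid transfer and remodelling, 3 were lower and 0 were higher by edgeR, DESeq2 and limma-voom alike, with a median log2 fold change of -0.12 (0.04 with scaling by library totals). None was higher at an unadjusted p under 0.05. *Pltp*, phospholipid transfer protein, averaged 55.6 ± 6.55 CPM in H-TBA livers and 94.5 ± 11.6 CPM in L-TBA livers (SD, n = 4 and 3; log2 fold change -0.77 ± 0.11, edgeR adjusted p = 0.000772). The HDL-bound enzymes *Pon1* (log2 fold change -0.58, edgeR adjusted p = 0.00951) and *Pon3* (-0.52, edgeR adjusted p = 0.0048) were also lower. *Abca1*, which loads lipid onto ApoA-I, and *Lcat* did not pass (log2 fold changes -0.12 and -0.02, edgeR adjusted p = 0.401 and 0.91).

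Of 28 transcriptional regulators known to act on apolipoprotein or lipid genes, 2 were higher and 4 were lower, with a median log2 fold change of -0.07 (0.08 with scaling by library totals). Over all tested genes 13.1% were higher and 10.7% lower, and the list was not tested against these shares. *Ppara*, the fatty acid-sensing nuclear receptor, averaged 54.9 ± 14.0 CPM in H-TBA livers and 117 ± 8.79 CPM in L-TBA livers (SD, n = 4 and 3; log2 fold change -1.09 ± 0.16, edgeR adjusted p = 0.00094). *Mlxipl*, which encodes the carbohydrate-response factor ChREBP, was lower (log2 fold change -0.76, edgeR adjusted p = 0.00308), and so was *Nr1h4*, the gene of the bile acid sensor FXR (-0.71, edgeR adjusted p = 0.0048). The others called were *Prox1*, lower, and *Nr1h2* and *Nr2f2*, higher, named because of their calls; of the 2 higher, 0 were called without H-TBA library 4 or L-TBA library 3, and 1 without H-TBA library 1, 2 or 3 or L-TBA library 2. *Hnf4a*, a regulator of many hepatocyte genes including apolipoproteins, averaged 508 ± 65.7 CPM in H-TBA livers and 536 ± 62.4 CPM in L-TBA livers and did not pass (log2 fold change -0.08, edgeR adjusted p = 0.695). Neither did *Creb3l3* (-0.06, edgeR adjusted p = 0.681), a regulator of *Apoa4*, nor *Nr1h3* (-0.19, edgeR adjusted p = 0.209), which encodes the oxysterol receptor LXR-alpha.

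The last list held 23 other secreted hepatocyte proteins, of which 4 were lower and 1 was higher, with a median log2 fold change of -0.21. Without H-TBA library 1 or L-TBA library 3, 6 were lower, and without any other single library 0 to 2. *Ttr* (transthyretin) averaged 2618 ± 171 CPM in H-TBA livers and 3569 ± 190.1 CPM in L-TBA livers (SD, n = 4 and 3; log2 fold change -0.45 ± 0.11, edgeR adjusted p = 0.0113). *Itih4* was lower (log2 fold change -0.58, edgeR adjusted p = 0.0369) and *Ahsg* higher (0.43, edgeR adjusted p = 0.0384), calls lost in 7 and 4 of the 18 alternatives other than the replicate block, and *Ambp* and *Hp*, named because of their calls, were lower. *Alb*, albumin, averaged 37121 ± 2106 CPM in H-TBA livers and 41021 ± 4299 CPM in L-TBA livers and did not pass (log2 fold change -0.14, edgeR adjusted p = 0.473), nor did *Trf*, transferrin (-0.12, edgeR adjusted p = 0.487). By counts, 7 of 10 apolipoprotein genes and 4 of these 23 genes were lower. Over all tested genes 10.7% were lower, and 38.8% of those with a mean of at least 1000 CPM. The count of this list depends on the threshold and the fit. Of the 23, 17 had a negative log2 fold change. At an unadjusted p under 0.05, 9 were lower, and DESeq2 also called 9 lower. Whether the 2 lists differ was not tested.

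**Figure D5:**
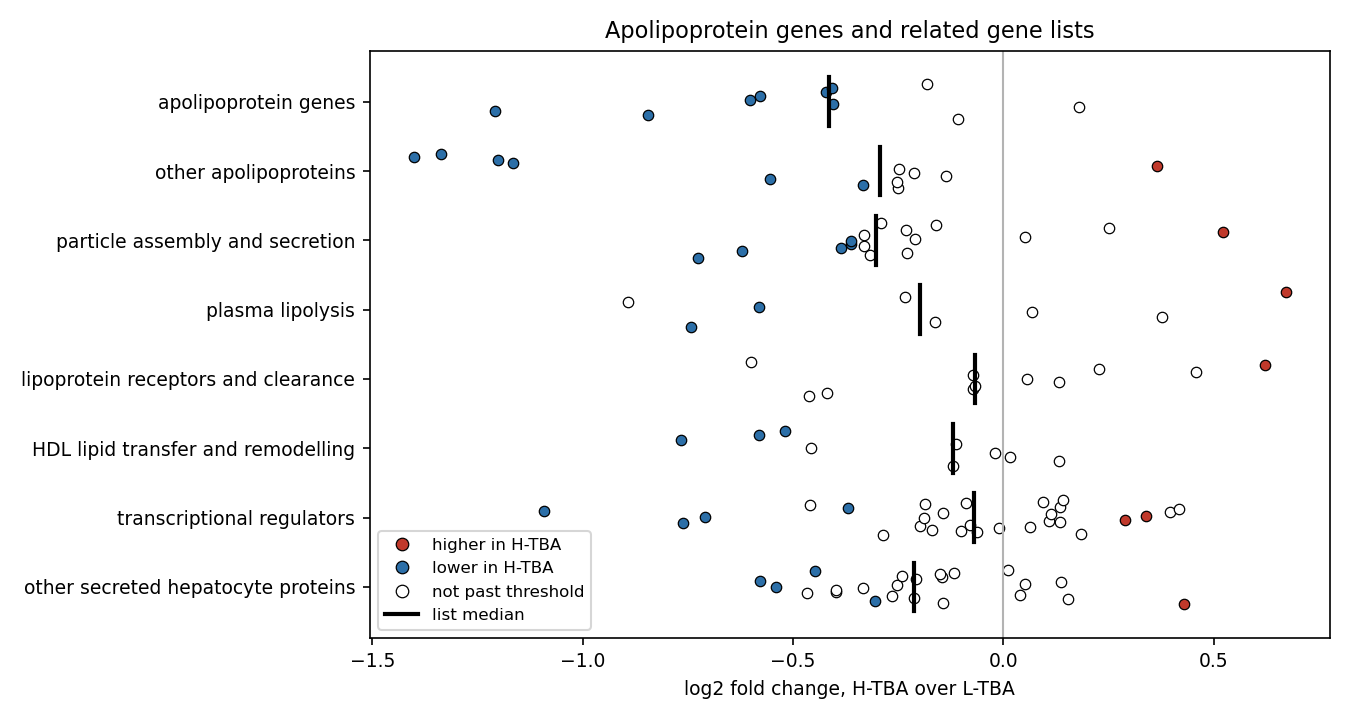
Log2 fold change, H-TBA over L-TBA (horizontal axis), of each tested gene in the apolipoprotein list and the 7 related lists; red points are higher and blue points lower in H-TBA livers at an adjusted p under 0.05, open points did not pass, and black lines are list medians. The apolipoprotein median lies at -0.41 and the medians of the other lists between -0.30 and -0.07.

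The liver label was checked against its markers. Over all tested genes 13.1% were higher and 10.7% lower. Of 10 hepatocyte markers 1 was higher (*Cps1*) and 1 was lower (*Ttr*) in H-TBA livers, and their summed level was 50766 to 56445 CPM in H-TBA libraries and 55228 to 62071 CPM in L-TBA libraries. Of 7 stellate cell markers 2 were higher and 1 was lower, at 728 to 815 CPM in H-TBA libraries and 508 to 935 CPM in L-TBA libraries. Of 6 endothelial markers 0 were higher (1 at an unadjusted p under 0.05) and 3 were lower, at 149 to 173 CPM in H-TBA libraries and 190 to 216 CPM in L-TBA libraries. Lymphocyte markers (0 of 5 called, 1 lower at an unadjusted p under 0.05) summed to 5.79 to 12.3 CPM in H-TBA libraries and 7.51 to 31.0 CPM in L-TBA libraries. Of the neutrophil markers *Ly6g* was at 0 in all 7 libraries, and 1 of the 2 tested was lower. The part of cell makeup in the apolipoprotein differences was not tested.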

How the data were processed

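Liver RNA was sequenced in 4 H-TBA and 3 L-TBA libraries, and the authors deposited 1 table of raw, whole-number counts per Ensembl gene. CASAVA, DESeq2 1.18.1, TopHat2 2.0.11 and the build mm9 appear in the submitters' processing notes, with no role for each. How reads were counted, by strand or not, and with which gene models is not given in the sources used here, so overlapping and antisense genes may share counts. Symbols came from GENCODE and matched 32897 of 37620 identifiers. Columns were assigned to samples by name.

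Genes were filtered with filterByExpr (minimum count 10, minimum total 15), which left 15249 of 23697 genes with counts. Groups were compared with the edgeR 4.0.16 quasi-likelihood test (R 4.3.3) after TMM scaling, with Benjamini-Hochberg adjustment over all tested genes at 0.05. The common biological coefficient of variation was 0.125. The scripts were tested on simulated data. Alternatives were other scalings, filters, length and GC offsets (20 bins), DESeq2 1.42.0, limma 3.58.1 voom with quality weights, a replicate block and each library left out. No 2 libraries of a group were alike within sampling noise (smallest chi-square per degree of freedom 5.71).

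The members and lists were chosen with earlier results of these data known. The genes named were all 10 members, up to 3 called genes with the smallest adjusted p from each list, and a set of fixed genes; others are stated as named for their calls. Some list genes are counted but not reported here by name. Promoter windows came from RefSeq on GRCm38.p6; no other coordinates are given, since that is not the build of the files. Exon lengths were found for 96.3% of tested genes.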

Additional observations from a re-analysis of the deposited data

Results flagged for a closer look

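None of the 10 apolipoprotein genes passed the check below for a library apart from the other H-TBA libraries. With 4 values that check finds only wide gaps. H-TBA library 1 was the highest of its group in 8 of the 10 genes. A gap between 1 library and the other 3 H-TBA libraries was sought in 45 values, those of 44 genes and the share of the 10 genes. Of these, 5 had a gap above Dixon's 95% critical share of the range. Chance gives about 1 in 20 independent groups. The values here come from the same libraries and some genes were picked for their adjusted p, so that rate is only a rough guide. *Nr1h4* was 97.1 CPM in H-TBA library 1 and 68.4 to 69.3 CPM in the other 3. *Lpl* was 445 CPM in H-TBA library 1 and 489 to 496 CPM in the other 3. *Sort1* was 34.1 CPM in H-TBA library 1 and 43.9 to 45.9 CPM in the other 3. *Pltp* was 65.4 CPM in H-TBA library 4 and 52.1 to 52.5 CPM in the other 3. *Saa3* was 3.42 CPM in H-TBA library 2 and 7.56 to 8.22 CPM in the other 3. The groups of 3 L-TBA libraries were too small for this check.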

How the results depend on the processing

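The labels do not say whether replicate numbers pair the libraries. Deviations from the group means of same-numbered libraries had correlations of -0.10 to -0.06 over all tested genes. Such values give no sign of pairing but cannot exclude it. With the replicate block 754 genes were lower and 1166 higher, against 1635 and 2003 without it, and 3 apolipoprotein genes were lower (*Apoa4*, *Apoa2* and *Apoc2*, edgeR adjusted p = 0.0140, 0.0298 and 0.0400). The block also ended the calls of *Mttp*, *Itih4* and *Ahsg* (edgeR adjusted p = 0.146, 0.155 and 0.126). It likewise ended those of *Cideb*, *Sort1*, *Pon1*, *Saa1* and *Ttr* (edgeR adjusted p = 0.0695, 0.0816, 0.0860, 0.110 and 0.120). The block gave 2 lower and 0 higher other apolipoproteins, 1 lower and 0 higher assembly genes, 1 lower lipolysis gene, 0 higher regulators, and 0 lower and 0 higher secreted proteins. Of the HDL remodelling genes 2 were lower with it, and of the regulators 3. Scaling by library totals moved the median log2 fold change of all genes to 0.16, with 3117 genes higher and 832 lower. It brought *Cideb* to -0.23, which did not pass, and *Ttr* to -0.29, which did (edgeR adjusted p = 0.0552 and 0.0194). With this scaling 1 apolipoprotein gene was higher, 2 assembly genes higher and 2 lower, 3 receptor genes higher, 5 regulators higher and 1 secreted protein lower. The strict filter (10 CPM in 3 libraries) gave 1197 higher genes and 2 lower secreted proteins. DESeq2 gave 1 higher regulator and 9 lower secreted proteins. limma-voom gave 8 lower assembly genes and 1 lower receptor gene. Without a filter 2 receptor genes were lower. The length offset gave 0 higher other apolipoproteins and 0 higher regulators, and the GC offset 0 higher other apolipoproteins. In each case the cause was not tested. The 10 genes kept 7 lower calls with DESeq2 size factors and with scaling that left out the 20 most abundant genes or the 10 themselves.

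With each library left out, 1035 to 2123 genes were lower and 1470 to 2429 higher, both at their most without H-TBA library 1, and 4 to 7 apolipoprotein genes were lower. Lower genes numbered 2 to 8 among other apolipoproteins (0 to 1 higher), 1 to 9 in assembly, 2 to 4 in lipolysis, 0 to 1 among receptors, 3 to 5 among regulators (0 to 2 higher) and 0 to 6 among secreted proteins (0 to 1 higher). Without L-TBA library 2 the log2 fold change of *Itih4* was -0.37.

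The sign turned for genes that did not pass the test. With library totals the log2 fold change was 0.0459 for *Apoa1*, 0.0853 for *Lrp1*, 0.0895 for *Creb3l3*, 0.0362 for *Abca1*, 0.041 for *Trf*, 0.13 for *Lcat*, 0.0734 for *Hnf4a* and 0.0116 for *Alb*, and the medians of the receptor, HDL remodelling and regulator lists were positive, at 0.09, 0.04 and 0.08. With libraries left out, *Angptl4* ran from -0.3358 without H-TBA library 1 to 0.043 without L-TBA library 2, the only positive value. *Lcat* was at 0.0116 with the strict filter and 0.0366 with the length offset. With libraries left out it ran from -0.0809 without H-TBA library 1 to 0.0302 without H-TBA library 3, and was also positive without H-TBA library 4 (0.0037) and L-TBA library 2 (0.0098). Counting error was at most 3.56% for the apolipoprotein genes. 3 of the other apolipoproteins (*Apod*, *Apol6*, *Apol10b*) and the receptor genes *Lrp8* and *Cubn* had too few counts to be tested.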

Other observations

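Profiles over the 7 libraries were compared by the root mean square difference of centred log2 CPM, where 0 is the same profile. Among the 10 genes the closest pair was *Apob* and *Apoe* (0.07), then *Apoc3* and *Apoe* (0.08), although these genes lie on 3 chromosomes. *Apoc1* was nearest to *Apoe* (0.12), *Apoc2* to *Apoc1* (0.13) and *Apoa2* to *Apoc1* (0.14). *Apom* was nearest to *Apoc3* (0.19), *Apoa1* to *Apoe* (0.17) and *Apoa5* to *Apoa1* (0.22). *Apoa4* was the least like the others, at 0.30 from its nearest, *Apoa2*.

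Tested genes without a symbol were left out of the next comparison. The 5 others nearest to *Apoa4* were *Prlr* (0.13), *Gm14567* (0.14), *Kbtbd11* (0.17), *Aqp7* (0.18) and *Fabp1* (0.18). Each was closer to *Apoa4* than was any other of the 10 apolipoprotein genes analysed here. *Prlr*, the prolactin receptor, averaged 18.9 ± 5.20 CPM in H-TBA livers and 43.8 ± 4.71 CPM in L-TBA livers (SD, n = 4 and 3), a log2 fold change of -1.22. *Fabp1*, the liver fatty acid-binding protein, averaged 1091 ± 259 CPM in H-TBA livers and 2383 ± 175 CPM in L-TBA livers (log2 fold change -1.13, edgeR adjusted p = 0.000768). *Aqp7*, a glycerol channel, averaged 2.73 ± 0.568 CPM in H-TBA livers and 5.73 ± 0.319 CPM in L-TBA livers (log2 fold change -1.07). *Kbtbd11* averaged 4.79 ± 2.06 CPM in H-TBA livers and 10.8 ± 2.84 CPM in L-TBA livers (log2 fold change -1.18). *Gm14567* was near the filter, at 0.443 ± 0.229 CPM in H-TBA livers and 1.10 ± 0.0855 CPM in L-TBA livers. They were picked for their likeness to *Apoa4*, so their differences are a description.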
